A study of Rattus norvegicus with 6 samples.

Results

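Complement and coagulation genes of the rat liver were examined as a list of 41 genes: complement components, clotting factors, the inhibitors and regulators of both cascades, and plasminogen. Members were found by gene symbol through the transcript accession of each array probe, and where a gene had several probes the brightest on average was used. Of the 41 genes, 36 were measured, among 27642 genes measured in all: 14 complement components, 10 clotting factors, 11 inhibitors or regulators, and plasminogen (Plg). C5, C8g, F11, F5 and F13b had no matching probe and were not analysed here.

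Liver RNA came from male Sprague-Dawley rats (Crl:CD(SD), an outbred stock) that were bought at 5 weeks of age. The control group of 3 animals received corn oil, and the treated group of 3 animals was given 400 mg/kg/day of the flame retardant tris(2-chloroethyl) phosphate (TCEP). Per the labels, dosing lasted 9 weeks, whereas the design text speaks of 28 days, and whether TCEP was dissolved in corn oil is not given in the sources used here. Each animal had 1 Agilent 1-colour array.

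Complement is a cascade of plasma proteases and binding proteins that marks microbes and damaged cells. The classical and lectin routes start with recognition proteins and their serine proteases, meet the alternative route at the cleavage of C3, and end in a membrane pore. Coagulation is a second protease cascade, in which the contact factors and the vitamin K-dependent zymogens lead to thrombin, which turns fibrinogen into fibrin. Inhibitors of the serpin family, the protein C system and complement regulators limit both cascades, and plasmin dissolves the clot. Hepatocytes make most of these proteins and secrete them into plasma, and many of the genes are acute phase genes that interleukin-6 raises during inflammation.

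No member changed at an adjusted p under 0.05 in limma (Benjamini-Hochberg over all genes). The background was the same, at 0% of the 27642 genes, and the smallest adjusted p over all genes was 0.290. At an unadjusted p under 0.05, 1 member was lower in TCEP, Serpind1, the gene of the thrombin inhibitor heparin cofactor II, against 4.16% of all genes. At that threshold 0 members were higher, against 5.08% of all genes. The groups did not overlap, with TCEP below, in 1 member (Serpind1), against 7% of all genes, and with TCEP above in 1 member, the lectin route protease gene Masp2, against 10.4% of all genes. These counts are near or below the background.

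Small differences leaned to a lower mean in TCEP: 26 of 36 members had one, against 48.9% of all genes, and the median log2 difference was -0.095, against 0.0058 for all genes. The count was 31 after quantile normalization, against 48.4% of all genes, and 23 after median centring, against 38.0% of all genes. The background also depends on the filter on dim probes. With no filter 59.9% of all genes had a lower mean in TCEP, with a median of -0.073. The members' values stayed at 26 and -0.095. Much of this lean went with 1 control animal. Without corn oil replicate 2, 20 of 36 members had a lower mean in TCEP, against 49.0% of all genes. The median was then -0.019, against 0.0053 for all genes. In bulk liver RNA, fewer cells of a type and less RNA per cell cannot be told apart.

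**Figure D1:**
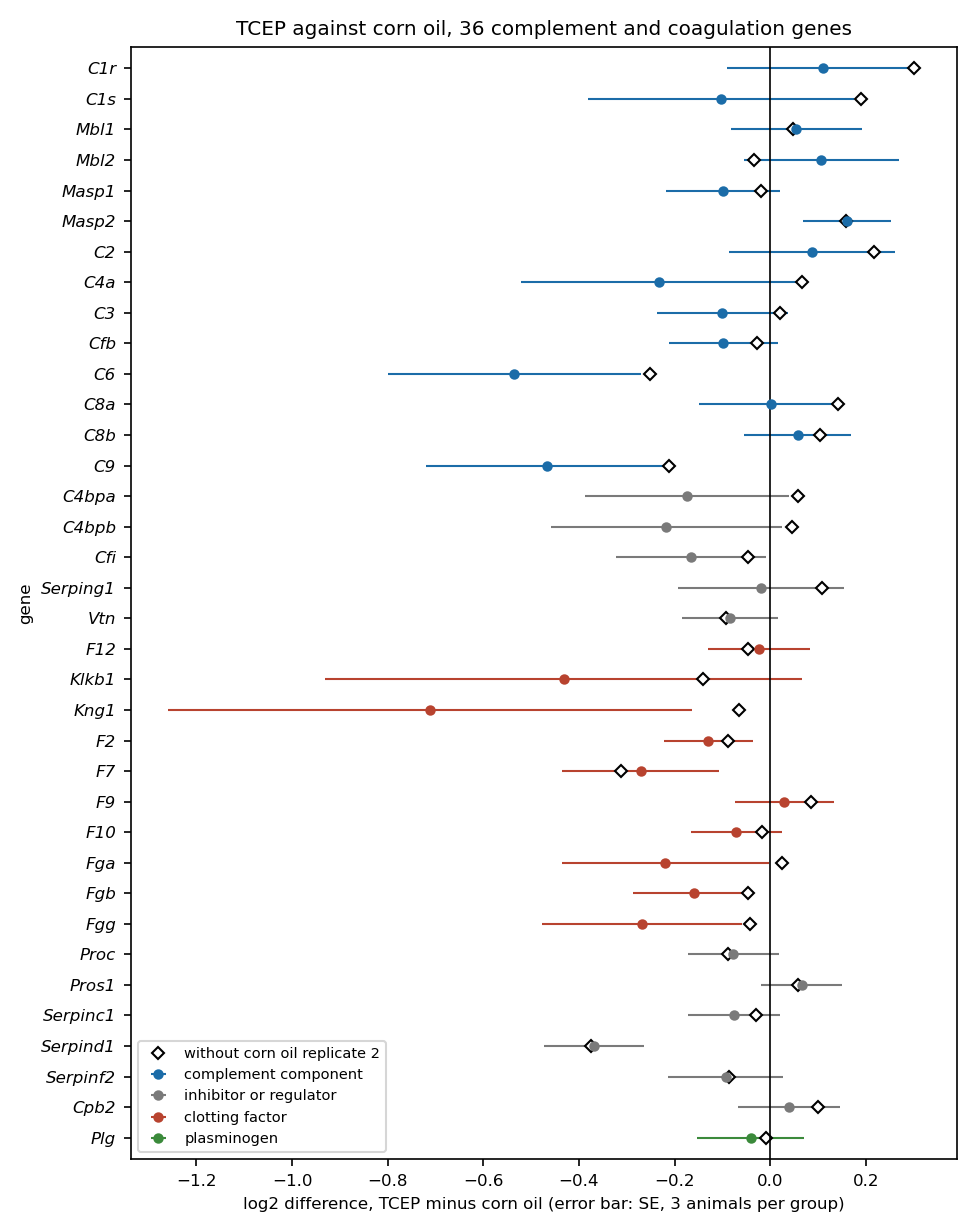
Log2 difference of each of the 36 genes, TCEP minus corn oil (x axis, log2 units; filled points with SE, 3 animals per group, coloured by class), and the same difference without corn oil replicate 2 (open diamonds). Of the 36 filled points 26 lie below 0, Kng1 lowest at -0.71, and most of the lowest points move toward 0 without that animal, while Serpind1 stays at -0.38.

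All 36 members were well above background on all 6 arrays and 0 were saturated, so none has only a bound. The level of a gene is given below as the log2 signal minus the 75th percentile of its array, which compares animals for 1 gene but not genes with each other. Between 57.2% and 64.4% of the 61657 non-control probes were well above background per array. All 8 hepatocyte markers were measured on all 6 arrays, among them Alb (albumin) at 10.08, 10.04 and 9.95 in corn oil and 9.76, 9.93 and 9.82 in TCEP, and Ttr (transthyretin) at 10.35, 10.31 and 10.22 in corn oil and 10.20, 10.35 and 10.26 in TCEP. The TCEP values of Alb lay below the controls (difference -0.19, SE 0.095) and those of Ttr overlapped them. Over the 8 hepatocyte markers the median difference was -0.088, with a lower mean in TCEP in 7, against 48.9% of all genes. Without corn oil replicate 2 their median was -0.12, with a lower mean in 6, against 49.0% of all genes. The TCEP arrays shared slide 3 and corn oil replicates 1 and 3 shared slide 1, so slide and group cannot be told apart. Corn oil replicate 2 lay alone on slide 2 and was scanned 23 days after the other arrays. It also had the lowest share of probes well above background, 57.2%. For this replicate the animal, the slide and the scan day cannot be told apart. The median SE of the members' differences was 0.14, and 20 members had more than 1 probe. In 3 of them (C8a, F9 and Serpinc1) the probes' differences did not all have the same sign, and the largest spread between probes of a gene was 0.20 (C8a).

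The recognition step of complement is served by C1r and C1s, the proteases of the classical C1 complex, by the mannose-binding lectins Mbl1 and Mbl2, and by their proteases Masp1 and Masp2. Masp2 had log2 levels of 4.40, 4.42 and 4.45 in the corn oil animals and 4.48, 4.61 and 4.66 in the TCEP animals. The corn oil values lay close together and every TCEP value was above them, by a small step. The difference was 0.16 (SE 0.092), with an adjusted p of 0.627 in limma. Of the 3 Masp2 probes only this one, the brightest, had groups that did not overlap. The others had differences of 0.026 (SE 0.11) and 0.16 (SE 0.12). The other members of this step had differences between -0.10 (C1s) and 0.11 (C1r), and these genes are neighbours in the RefSeq gene order. Both were highest in corn oil replicate 2, and without that animal their differences were 0.19 and 0.30. Mbl2 was lowest in that animal, with 4.31, 3.70 and 3.94 in corn oil and 4.10, 4.08 and 4.09 in TCEP, and its difference of 0.11 became -0.033 without it. Mbl1 (0.054 ± 0.14, log2 difference ± SE) and Masp1 (-0.098 ± 0.12) differed by less than their standard errors.

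The convertases that cleave C3 are built from C4 and C2 in the classical and lectin routes and from factor B (Cfb) in the alternative route. C3, the protein on which the routes meet, had log2 levels of 9.77, 10.05 and 9.61 in corn oil and 9.63, 9.79 and 9.71 in TCEP. Corn oil replicate 2 was the highest animal, and the TCEP values lay within the range of the controls. The difference was -0.10 (SE 0.14), with a 95% interval of -0.43 to 0.23. C4a, one of the rat C4 genes, had 8.57, 9.47 and 8.59 in corn oil and 8.76, 8.88 and 8.29 in TCEP. Its high value was again corn oil replicate 2, and its difference of -0.23 (SE 0.29) was 0.066 without that animal. Cfb (-0.098 ± 0.11) and its neighbour C2 (0.087 ± 0.17) differed in opposite directions by less than their standard errors.

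The terminal components join into the membrane attack complex. C9, which forms the pore, had 6.66, 7.54 and 6.88 in corn oil and 6.73, 6.68 and 6.28 in TCEP. Corn oil replicate 2 stood far above the rest, and TCEP replicate 3 was the lowest animal. The groups overlapped, because TCEP replicates 1 and 2 were above corn oil replicate 1. The difference was -0.47 (SE 0.25), with an adjusted p of 0.606 in limma. C6, which joins the complex before C9 and was singled out after its values were seen, had 3.42, 4.47 and 3.83 in corn oil and 3.41, 3.46 and 3.23 in TCEP. Its difference was -0.54 (SE 0.26), the lowest of the complement components, and TCEP replicate 2 was above corn oil replicate 1. Without corn oil replicate 2 the differences were -0.21 for C9 and -0.25 for C6. C8a (0.0020 ± 0.15) and its neighbour C8b (0.057 ± 0.11), which encode chains of C8, differed by less than their standard errors.

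Complement is held in check by C4b-binding protein (C4bpa and C4bpb), which speeds the decay of the classical convertase, by factor I (Cfi), which cleaves C3b and C4b, and by C1 inhibitor (Serping1). Vitronectin (Vtn) keeps the terminal complex from inserting into membranes. Serping1 had log2 levels of 9.07, 9.35 and 8.87 in corn oil and 9.24, 9.19 and 8.82 in TCEP. The groups overlapped, and its difference was -0.019 (SE 0.17), which turned positive after median centring and without corn oil replicate 2 (0.11). C4bpb, singled out after its values were seen, had 8.04, 8.68 and 7.75 in corn oil and 7.82, 8.06 and 7.94 in TCEP, with corn oil replicate 2 as the high animal. Its difference was -0.22 (SE 0.24) and that of C4bpa was -0.17 (SE 0.21), and without that animal they were 0.046 and 0.059. The 2 genes lie near each other in the RefSeq gene order, 2 places apart. Cfi (-0.17 ± 0.16) and Vtn (-0.084 ± 0.10) also had a lower mean in TCEP.

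The contact factors start the intrinsic route of clotting. F12, the zymogen that surface contact activates, had 7.94, 7.80 and 7.79 in corn oil and 7.68, 7.93 and 7.84 in TCEP. The animals of both groups were mixed, and the difference was -0.023 (SE 0.11), with a positive sign after median centring. Kininogen (Kng1), the carrier of prekallikrein and the precursor of bradykinin, had the lowest difference of all members, -0.71 (SE 0.55). Its levels were 6.98, 9.02 and 7.18 in corn oil and 7.28, 7.12 and 6.64 in TCEP. One array sets this value: corn oil replicate 2 was 1.94 above the mean of the other controls, and without it the difference was -0.065. Kng2, a near copy of Kng1 whose signal the probes may share, had 6.89, 8.98 and 7.01 in corn oil and 7.20, 7.18 and 6.68 in TCEP, with the same high animal.

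Klkb1, the gene of plasma prekallikrein, was singled out for the pattern of its values, 4.17, 5.68 and 5.45 in corn oil and 5.47, 4.28 and 4.26 in TCEP. The animals fell into an upper and a lower band that crossed the groups. Corn oil replicates 2 and 3 and TCEP replicate 1 were in the upper band, and corn oil replicate 1 and TCEP replicates 2 and 3 in the lower one. The difference of -0.43 (SE 0.50) therefore lay within the spread of both groups, and it rests on the only Klkb1 probe of the array.

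The vitamin K-dependent zymogens gain their calcium-binding residues by carboxylation of glutamate. Prothrombin (F2) had 9.48, 9.63 and 9.54 in corn oil and 9.35, 9.50 and 9.42 in TCEP. Its groups overlapped by a single pair of animals, TCEP replicate 2 and corn oil replicate 1, and the difference was -0.13 (SE 0.094), with a 95% interval of -0.36 to 0.098. F7, which binds tissue factor to start the extrinsic route, had 1.63, 1.28 and 1.18 in corn oil and 1.07, 1.31 and 0.91 in TCEP. Corn oil replicate 1 was its highest animal and TCEP replicate 3 its lowest, and the difference was -0.27 (SE 0.16), or -0.31 without corn oil replicate 2. F9 (0.030 ± 0.10) and F10 (-0.071 ± 0.095), a neighbour of F7, differed by less than their standard errors.

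Fibrinogen is a hexamer of 3 chains, from Fga, Fgb and Fgg, which are adjacent in the RefSeq gene order. Fgb had log2 levels of 10.0004, 10.3605 and 10.0412 in corn oil and 9.9422, 10.0622 and 9.9189 in TCEP. Fga had 8.98, 9.75 and 9.05 in corn oil and 9.01, 9.13 and 8.97 in TCEP. Fgg had 9.09, 9.89 and 9.34 in corn oil and 9.09, 9.19 and 9.25 in TCEP. In each of the 3 genes corn oil replicate 2 was the highest of the 6 animals and the other 5 lay close together. The differences were -0.16 (SE 0.13) for Fgb, -0.22 (SE 0.22) for Fga and -0.27 (SE 0.21) for Fgg. Without corn oil replicate 2 they were -0.046, 0.026 and -0.043. The values of Fga and Fgg in single animals are given because of this shared pattern, after it was seen.

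**Figure D2:**
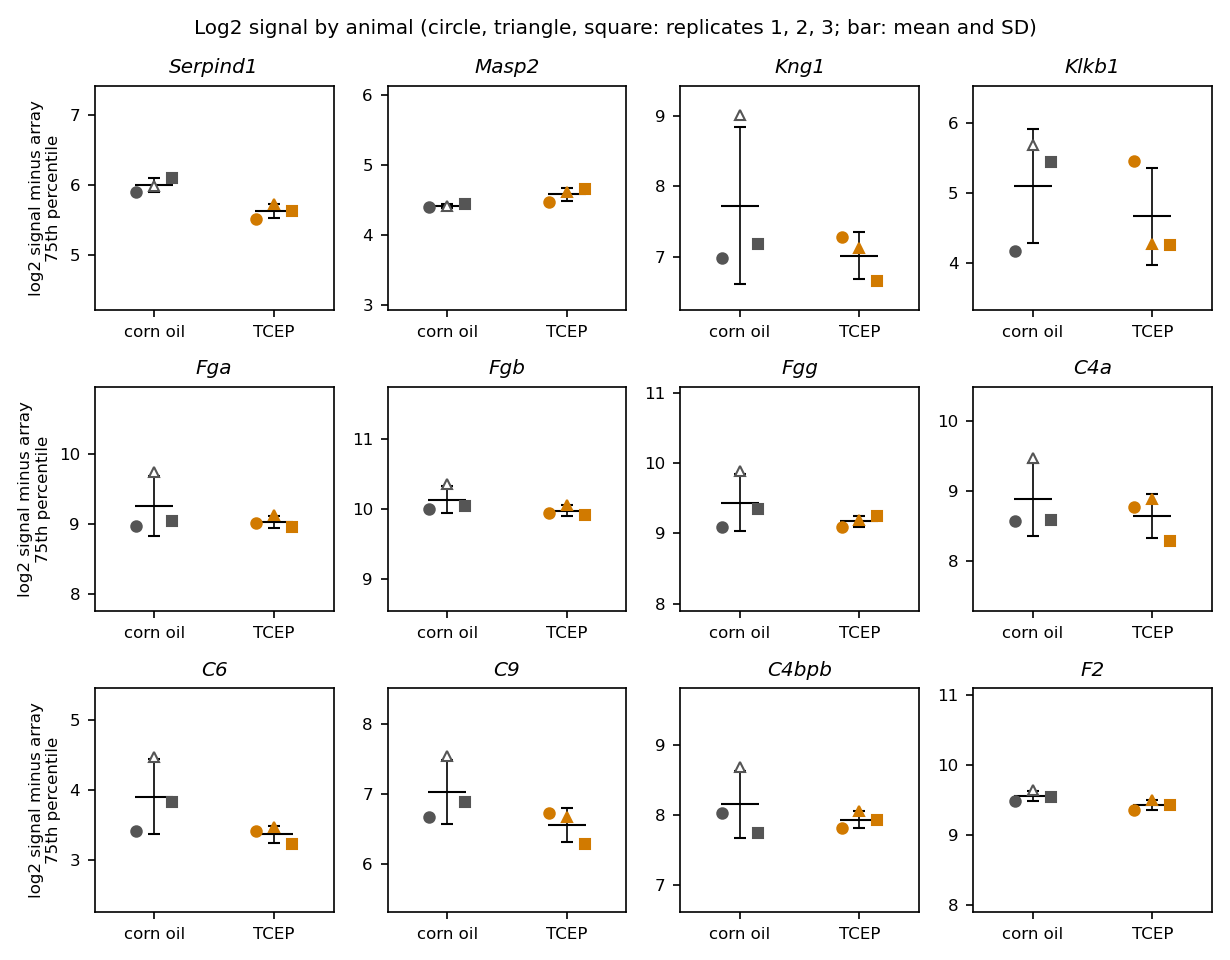
Log2 signal minus the array's 75th percentile (y axis, 3.2 log2 units in every panel) of 12 genes in each animal, by group, with the mean and SD. Corn oil replicate 2 (open triangle) is the highest animal in Kng1, Fga, Fgb, Fgg, C4a, C6, C9 and C4bpb, the groups are apart in Serpind1 and Masp2, and Klkb1 falls into an upper and a lower band in both groups.

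The promoter sequences of the fibrinogen genes and Kng1 are shown because these genes carry the pattern of corn oil replicate 2, and in the clearest form in Kng1. Each runs from 250 bases before to 50 bases after the gene start in RefSeq, rat assembly GRCr8, written 5′ to 3′ in the direction of the gene. The windows are chr2:170671919-170672218 on the plus strand for Fga, chr2:170700826-170701125 on the minus strand for Fgb, chr2:170652833-170653132 on the plus strand for Fgg and chr11:91340099-91340398 on the minus strand for Kng1. Capitals mark matches, on either strand, to the motifs searched: TTCNNNGAA (STAT), CTGGGAA (interleukin-6 response), GTTAAT (HNF1) and TTGCNNAA (C/EBP).
Fga: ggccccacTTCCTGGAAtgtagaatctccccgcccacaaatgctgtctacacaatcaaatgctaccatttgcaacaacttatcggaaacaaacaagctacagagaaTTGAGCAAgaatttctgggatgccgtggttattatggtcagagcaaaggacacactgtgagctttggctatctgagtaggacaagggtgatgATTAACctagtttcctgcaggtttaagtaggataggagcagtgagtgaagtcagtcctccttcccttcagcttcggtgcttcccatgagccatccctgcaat
Fgb: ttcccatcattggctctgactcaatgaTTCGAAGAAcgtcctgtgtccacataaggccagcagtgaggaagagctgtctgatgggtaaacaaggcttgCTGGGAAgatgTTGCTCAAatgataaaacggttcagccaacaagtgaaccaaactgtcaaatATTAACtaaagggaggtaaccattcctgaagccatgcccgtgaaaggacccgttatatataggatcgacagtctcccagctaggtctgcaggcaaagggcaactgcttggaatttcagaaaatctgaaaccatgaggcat
Fgg: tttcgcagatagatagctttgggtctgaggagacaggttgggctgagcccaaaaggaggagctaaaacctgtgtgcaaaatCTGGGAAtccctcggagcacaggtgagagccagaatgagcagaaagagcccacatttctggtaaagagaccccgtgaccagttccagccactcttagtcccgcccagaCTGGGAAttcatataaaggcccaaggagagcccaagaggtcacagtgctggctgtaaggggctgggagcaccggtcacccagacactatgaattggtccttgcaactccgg
Kng1: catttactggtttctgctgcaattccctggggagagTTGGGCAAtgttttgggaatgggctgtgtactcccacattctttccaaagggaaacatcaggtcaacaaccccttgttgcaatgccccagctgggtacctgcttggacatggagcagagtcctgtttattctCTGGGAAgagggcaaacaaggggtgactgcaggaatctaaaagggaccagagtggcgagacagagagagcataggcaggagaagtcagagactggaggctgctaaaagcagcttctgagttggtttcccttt

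Fga held a STAT match at -242 to -234 from the gene start, a C/EBP match at -144 to -137 and an HNF1 match at -52 to -47. Fgb held all 4 motifs, with its interleukin-6 response match at -152 to -146 and its C/EBP match at -141 to -134. Fgg held the interleukin-6 response motif at -169 to -163 and again at -61 to -55, and Kng1 held it at -82 to -76 beside a C/EBP match at -214 to -207. The STAT and interleukin-6 response motifs share letters and can overlap in a sequence.

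Of the 41 genes, 32 had a promoter window, against 27457 genes in all. The C/EBP motif was in 12 of the 32 windows (37.5%), against 10.5% of all windows. The interleukin-6 response motif was in 11 (34.4%, against 10.9%), the HNF1 motif in 10 (31.3%, against 7.37%) and the STAT motif in 7 (21.9%, against 8.68%). The HNF4 motif CAAAGTCCA was in 0 of the 32 windows, against 0.375% of all. At least 1 motif was in 22 of the 32 windows, against 31.9% of all windows. Of the 28 measured members with a window, 9 were high in corn oil replicate 2 by the limit given below and 19 were not. Fgb was among the 19. The STAT motif was in 2 of the 9 and 5 of the 19, and HNF1 in 3 and 5. The interleukin-6 response motif was in 5 of the 9 and 6 of the 19, and C/EBP in 6 and 6. Whether a motif goes with the pattern of that animal was not tested. A match is a run of letters and not a shown binding site, and no test of the shares was made.

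**Figure D3:**
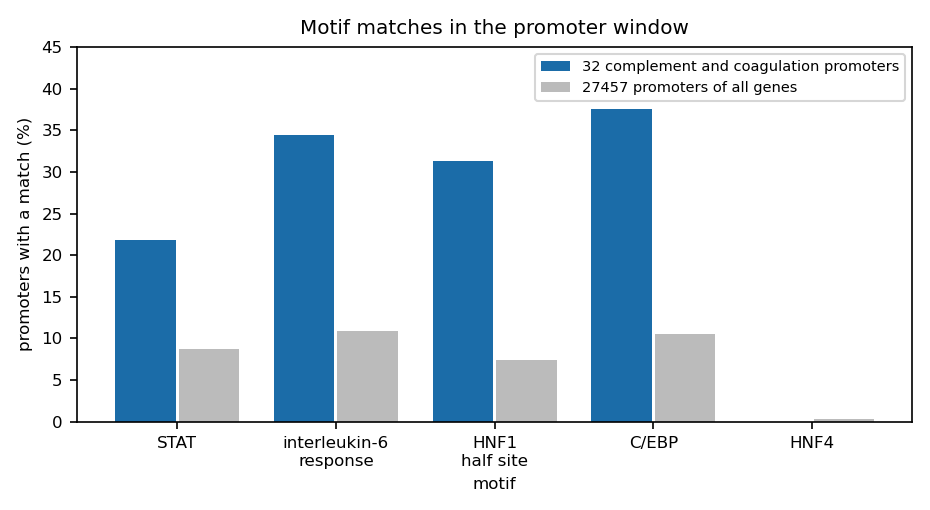
Share of promoter windows (y axis, percent) with at least 1 match to each motif (x axis), in the 32 windows of complement and coagulation genes (blue) and in all 27457 windows (grey). The blue bar is the taller for STAT, interleukin-6 response, HNF1 and C/EBP, with 37.5% against 10.5% for C/EBP, and the HNF4 motif is in 0 of the 32 windows.

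The anticoagulants include antithrombin (Serpinc1) and heparin cofactor II (Serpind1), which trap thrombin, and protein C (Proc) with its cofactor protein S (Pros1), which inactivate the clotting cofactors. Serpind1 had log2 levels of 5.90, 5.98 and 6.10 in corn oil and 5.52, 5.73 and 5.63 in TCEP. Every TCEP animal was below every control, and corn oil replicate 2 lay between the other controls. The means were 5.996 ± 0.099 in the corn oil group and 5.628 ± 0.106 in the TCEP group (SD, n = 3 each), a 1.29-fold lower mean. The difference was -0.37 (SE 0.10), with a 95% interval of -0.62 to -0.11, an unadjusted p of 0.0118 and an adjusted p of 0.481 in limma. It was -0.38 without corn oil replicate 2, and lay between -0.46 and -0.31 over all 17 alternatives, each with an unadjusted p under 0.05. The array holds 1 Serpind1 probe, so this value has no second probe beside it. Serpinc1 (-0.075 ± 0.096), Proc (-0.077 ± 0.096) and Pros1 (0.066 ± 0.084) differed by less than their standard errors.

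In fibrinolysis, Plg is the zymogen of plasmin, Serpinf2 encodes antiplasmin, and Cpb2 encodes a carboxypeptidase that protects fibrin from plasmin. Serpinf2 had 5.90, 6.05 and 6.15 in corn oil and 5.82, 6.10 and 5.89 in TCEP, a difference of -0.093 (SE 0.12). Plg had 8.84, 9.03 and 9.02 in corn oil and 8.83, 9.07 and 8.86 in TCEP, a difference of -0.041 (SE 0.11) whose sign was positive after median centring. The groups overlapped in both genes, and Cpb2 (0.039 ± 0.11) also differed by less than its standard error.

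By class, the clotting factors had the lowest median difference, -0.19, with a lower mean in TCEP in 9 of 10 genes. The inhibitors and regulators had a median of -0.084, with a lower mean in 9 of 11. The complement components had a median of -0.048, with a lower mean in 7 of 14. This median was 0.0095 after median centring, against 0.063 for all genes. Without corn oil replicate 2 the medians were -0.046 for clotting factors, -0.029 for inhibitors and 0.057 for complement components. The classes were described and not tested against each other. By step, the lowest medians were those of the contact factors (-0.43, 3 genes), the terminal components (-0.23, 4 genes) and fibrinogen (-0.22, 3 genes), and the highest was that of the recognition step (0.081, 6 genes). Without corn oil replicate 2 the first 3 were -0.065, -0.054 and -0.043. The anticoagulants then had -0.059 and the vitamin K-dependent zymogens -0.053, so the order of these steps did not hold. The terminal median then lay between C6 (-0.25) and C9 (-0.21) on the lower side and C8a (0.14) and C8b (0.10) on the higher side.

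Corn oil replicate 2 was the highest of the 6 animals in 23 of 36 members, against 17.7% of all genes. The other animals were highest in 3 and 2 members (corn oil replicates 1 and 3) and in 0, 5 and 3 members (TCEP replicates 1 to 3). It was more than 0.5 log2 units above the mean of the other controls in 11 members, against 8.14% of all genes. These were C1r, C1s, C4a, C6 and C9 among the components, C4bpa and C4bpb among the regulators, and Klkb1, Kng1, Fga and Fgg among the clotting factors. For Klkb1 the mean of the other controls was lowered by corn oil replicate 1 (4.17), while corn oil replicate 3 (5.45) was near corn oil replicate 2 (5.68). By the same measure within its own group, corn oil replicate 3 and TCEP replicate 1 were high in 1 member each, and the other 3 animals in 0. Over all genes the shares were 7.27% and 7.31% for corn oil replicates 1 and 3, and between 4.25% and 4.88% for the TCEP animals. For corn oil replicates 1 and 3 the compared mean includes corn oil replicate 2, so they seldom count as high where that animal is high. The median distance of corn oil replicate 2 from the other controls was 0.22 over the members and -0.0093 over all genes. It was 0.38 over the complement components, 0.25 over the clotting factors and 0.14 over the inhibitors. This animal and the limit of 0.5 were chosen after the values were seen.

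**Figure D4:**
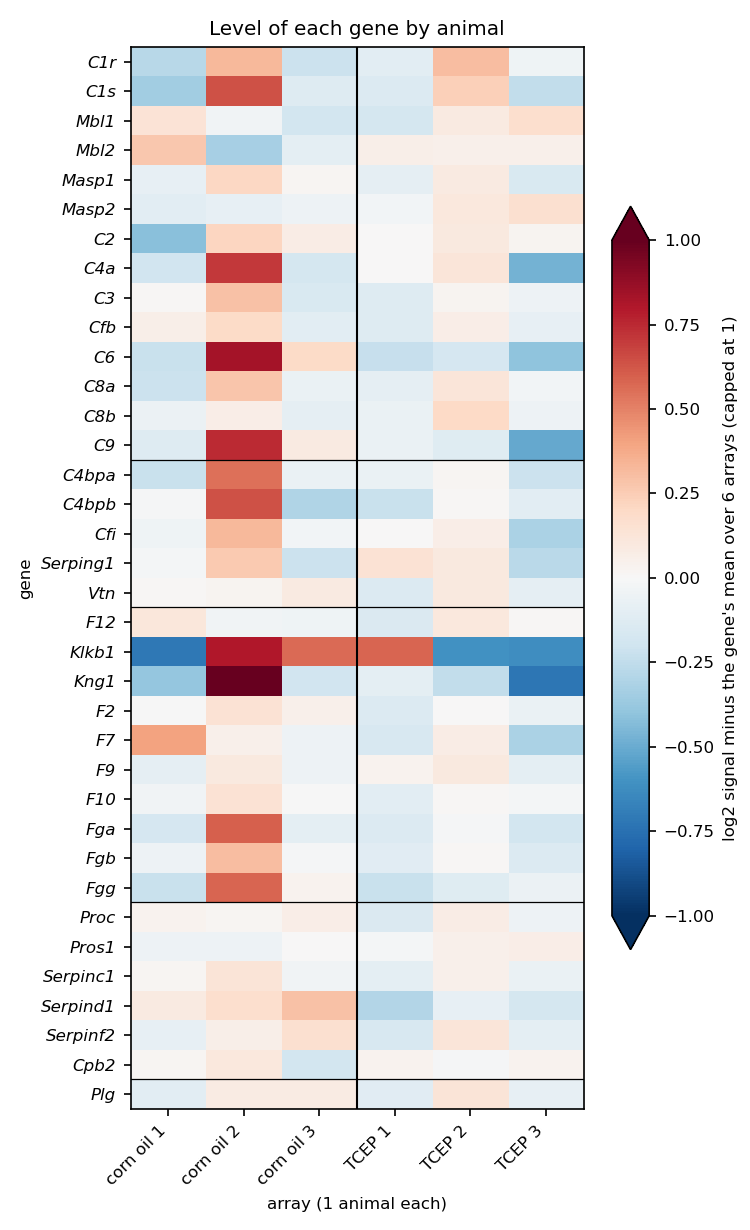
Log2 signal of each of the 36 genes (rows, grouped by class) in each of the 6 animals (columns), minus the gene's mean over the 6 arrays (colour, log2 units, capped at 1). The column of corn oil replicate 2 is the highest in 23 of 36 genes, and the next most frequent, TCEP replicate 2, in 5.

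The SD of a member had a median of 0.20 among controls and 0.12 among TCEP animals, and was larger among controls in 26 of 36 members. Over all genes the medians were 0.19 and 0.14, and the SD was larger among controls in 62.5%.

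**Figure D5:**
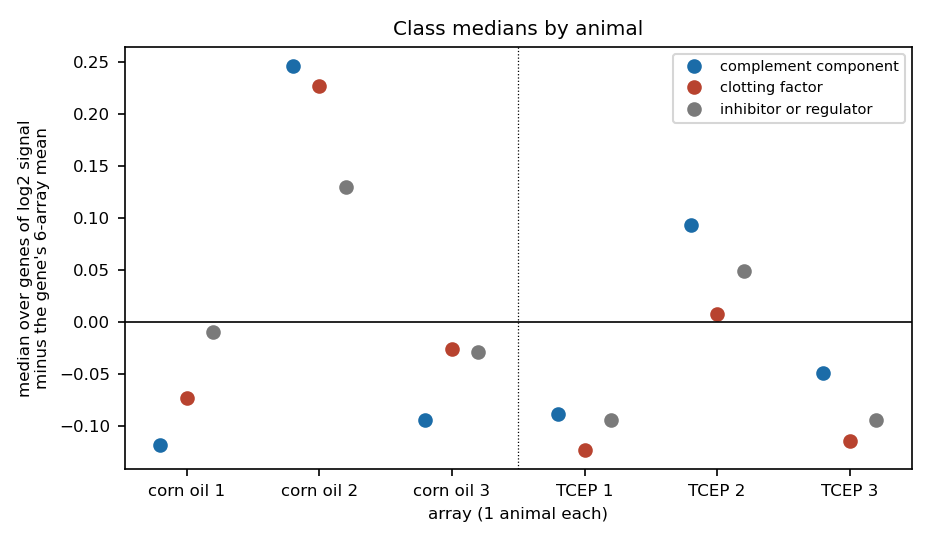
Median, over the genes of a class, of the log2 signal minus the gene's mean over the 6 arrays (y axis, log2 units), by animal (x axis) and class (colour). In corn oil replicate 2 the medians are 0.25 for complement components, 0.23 for clotting factors and 0.13 for inhibitors, and in the other 5 animals they lie between -0.12 and 0.093.

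Markers of other cells were read in the same animals. Over the 3 of 6 listed neutrophil markers that were measured (Camp, S100a8 and S100a9), the mean level, centred on each gene's mean over the arrays, was 1.19 in corn oil replicate 2. It was 0.30 and -1.12 in corn oil replicates 1 and 3, and between -0.45 and 0.36 in the TCEP animals. The markers did not share 1 pattern. In corn oil replicate 2, S100a8 and S100a9 were 2.21 and 2.11 above the mean of the other controls. Camp was highest in corn oil replicate 1, at -0.43, against -0.65 in corn oil replicate 2. The 3 other neutrophil markers (Mpo, Elane and Ngp) did not pass the signal filter or had no matching probe. Over 9 of 10 macrophage markers the mean level was -0.67, 0.25 and 0.53 in corn oil and between -0.22 and 0.21 in TCEP. Over the 8 hepatocyte markers it was 0.0074, 0.035 and 0.25 in corn oil and -0.13, 0.0071 and -0.18 in TCEP, without overlap of the groups. Over 5 of 6 bile duct markers it was -0.37, -0.081 and -0.084 in corn oil and 0.21, 0.47 and -0.14 in TCEP, and the markers' own differences did not all have the same sign: Epcam (0.52 ± 0.16) and Spp1 (1.04 ± 0.35) were higher in TCEP at an unadjusted p under 0.05, while Krt19 (0.50 ± 0.24), Krt7 (-0.27 ± 0.18) and Cftr (0.0069 ± 0.24) were not past it. The part of these cells in the values of the members was not tested.

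Of 27 further complement genes (recognition molecules, receptors and surface regulators), 19 were measured, 0 passed the adjusted or the unadjusted threshold, and 15 had a lower mean in TCEP. Without corn oil replicate 2, 11 had a lower mean. Clusterin (Clu), which binds the terminal complex and was among the brightest, had a difference of -0.16 (SE 0.11). The chains of C1q, the recognition molecule of the classical route that macrophages make, were read after the values were seen. C1qa had 3.42, 4.57 and 4.92 in corn oil and 4.47, 4.15 and 4.43 in TCEP, with a low value in corn oil replicate 1. The mean of the 3 chains, centred as above, was -0.90, 0.28 and 0.64 in corn oil and between -0.19 and 0.11 in TCEP, so that the controls bracketed the treated animals, as they did for the macrophage markers.

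Of 31 further coagulation and fibrinolysis genes, 21 were measured, 0 passed the adjusted threshold and 2 were lower in TCEP at an unadjusted p under 0.05, against 4.16% of all genes. A2m, the gene of the broad protease inhibitor alpha-2-macroglobulin, had 2.76, 2.79 and 3.59 in corn oil and 2.41, 1.81 and 1.71 in TCEP. All TCEP values were below the controls, as in 7% of all genes, with a difference of -1.07 (SE 0.29) and an adjusted p of 0.476 in limma. F8, the cofactor of F9, had -1.39, -1.24 and -1.24 in corn oil and -1.47, -1.79 and -1.55 in TCEP, also without overlap, with a difference of -0.31 (SE 0.12) and an adjusted p of 0.529 in limma. Neither was high in corn oil replicate 2, and without that animal the differences were -1.20 and -0.29.

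All 6 genes of the vitamin K cycle were measured and 4 had a higher mean in TCEP. All 16 genes of the interleukin-6 route and of liver transcription factors were measured, and at an unadjusted p under 0.05 1 was lower and 1 higher in TCEP, against 4.16% and 5.08% of all genes. Socs3, the feedback inhibitor of the interleukin-6 route, had -1.97, -1.77 and -1.66 in corn oil and -2.19, -2.17 and -2.17 in TCEP. Its TCEP values lay close together below the controls, with a difference of -0.37 (SE 0.11) and an adjusted p of 0.483 in limma. Nr1h4, the bile acid receptor gene, had 5.06, 5.09 and 4.82 in corn oil and 5.20, 5.34 and 5.71 in TCEP, with every TCEP animal above the controls, a difference of 0.43 (SE 0.16) and an adjusted p of 0.528 in limma. None of the 6 and 16 genes passed the adjusted threshold.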

How the data were processed

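Per the labels, RNA of 6 rat livers was labelled with Cy3 for 1-colour arrays. The authors extracted each spot's intensity, per the file headers, as a background-subtracted processed signal on a linear scale, with Agilent Feature Extraction 10.7.1.1, given as 10.7 in the submitters' processing notes. A ratio fills the deposited value table: the processed signal over the 75th percentile of its array, as found by setting it against the scanner signal; genes were not centred, and its column medians were 0.101, 0.103, 0.0961, 0.0955, 0.0971 and 0.0953. The flags for outliers, saturation and signal well above background are the authors' deposited other columns of 0 or 1.

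For each array, log2 of the processed signal was taken relative to the 75th percentile, without the 1319 control spots and with 64 outlier-flagged spots left out. Probes were kept where all 3 arrays of either group were well above background (37043 of 61657). They were named through unversioned accessions in a RefSeq table of rat assembly GRCr8 (27460 probes matched), and the probe with the highest mean represented each gene. The array names an older build, so coordinates are given only for RefSeq promoter windows. The 2-group comparison used limma 3.58.1 under R 4.3.3 (lmFit, then eBayes), with two-sided p-values adjusted by Benjamini-Hochberg over all genes at a threshold of 0.05; the fit was tested on simulated data.

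Animals were grouped by treatment as labelled, with the titles giving the replicate number; each replicate is 1 animal, per the labels. Members, lists and rules were chosen with earlier results of these data known. Any member could be named. Values per animal were given for members at an unadjusted p under 0.05 or with groups that did not overlap and, in each functional step without one, for the brightest member. C4a, C6, C4bpb, Mbl2, F7, Kng1, Kng2, Klkb1, Fga, Fgg and the C1q chains were added after their values were seen. Of the other lists, members at an unadjusted p under 0.05, or else the brightest, were named, and some of these are not reported here. The scaling, background correction, filter, probe choice, variance model, slide, pairing and each array were varied. The number of arrays limits the precision.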

Additional observations from a re-analysis of the deposited data

How the results depend on the processing

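All alternatives gave 0 members past the adjusted threshold in limma. The count at an unadjusted p under 0.05 was 1 (Serpind1), 1 of 61 probes when every probe was tested on its own, and between 1 and 3 when an array was left out (3 without corn oil replicate 1: C6, C9 and Serpind1). The number of members with a lower mean in TCEP, counted after the data were seen, was between 20 and 31 over the alternatives with 1 value per gene, and 45 of 61 probes. The median of the clotting factors was between -0.23 and -0.046 when an array was left out, with -0.046 without corn oil replicate 2. With the replicate number as a block the unadjusted count was 1 and the median over members was -0.095, and this replicate block changed no call. Over all genes, the deviations of same-numbered animals from their group means had correlations of -0.048, -0.16 and -0.015. Animals with different numbers had correlations between -0.066 and 0.12. Deviations within a group of 3 are tied to each other, so these values cannot settle whether same-numbered animals were paired. In the shorter promoter window, from 150 bases before the gene start, the STAT motif was in 3 windows (9.38%, against 5.61% of all windows) and any motif in 19.

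Of 36 members, 20 changed sign under at least 1 of 17 alternatives and 16 under none, in 39 of 612 values in all. Apart from the common shift of median centring, the cause was not tested. Quantile normalization gave log2 differences of -0.097 for C8a, -0.037 for C8b, -0.062 for Cpb2, -0.081 for F9 and -0.053 for Mbl1. Median centring moved every member's difference up by the same amount, and the median of all genes to 0.063. It gave 0.034 for F12, 0.016 for Plg and 0.038 for Serping1. Normexp background correction (offset 50, on the median signal) gave -0.0055 for C8a, -0.0032 for Cpb2, 0.0091 for F10, 0.078 for Plg, -0.078 for Pros1 and 0.0081 for Serpinc1. The mean over probes gave -0.051 for F9 and -0.082 for C8a. Leaving out each array gave ranges of -0.099 to 0.22 (C2), -0.10 to 0.14 (C8a), -0.080 to 0.045 (F12), -0.013 to 0.086 (F9), -0.30 to 0.19 (C1s), -0.20 to 0.021 (C3), -0.38 to 0.066 (C4a), -0.33 to 0.059 (C4bpa), -0.42 to 0.046 (C4bpb), -0.36 to 0.026 (Fga), -0.033 to 0.27 (Mbl2), -0.13 to 0.11 (Serping1), -0.043 to 0.10 (Cpb2), -0.023 to 0.15 (Mbl1), -0.12 to 0.0033 (Plg), -0.018 to 0.30 (C1r) and -0.028 to 0.10 (C8b).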
